A study of Sus scrofa with 6 samples.

Results

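The proteins that coat lipid droplets were followed at the mRNA level in pig muscle of high and low intramuscular fat (IMF) content. Genes were taken from the deposited expression table by name, as the 5 perilipins PLIN1 to PLIN5 and the CIDE genes CIDEA, CIDEB and CIDEC. Of these 8 genes, 7 had rows among the 31908 annotated genes of the table, and no row carried the name CIDEA. The muscle was the longissimus dorsi (LD), which runs along the back, and it was sampled from 6 castrated male Laiwu pigs, a Chinese breed known for marbled meat. The S-H group held the 3 pigs of very high IMF content (LW63, LW70 and LW119) and the S-L group the 3 pigs of very low IMF content (LW82, LW88 and LW90). Each pig gave 1 strand-specific library depleted of ribosomal RNA. The groups were chosen on IMF content itself, without any treatment, and the RNA came from whole muscle, which holds fibres, fat cells, vessels and connective tissue together.

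A lipid droplet is a core of triglyceride under a single layer of phospholipid, and perilipins sit on that layer, where they govern the access of lipases. PLIN1 and CIDEC are characteristic of fat cells, in which PLIN1 holds back lipolysis and CIDEC drives the fusion of small droplets into a large one. PLIN2 and PLIN3 coat droplets in most cells, PLIN5 is typical of oxidative tissue, where it links droplets to mitochondria, and PLIN4 is abundant in fat cells and is also found in muscle.

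All values are FPKM, fragments per kilobase of transcript scaled to the mapped fragments of the library, which allows levels to be set side by side between genes. In the LD muscle PLIN2 was the most abundant member, with 157.8 ± 49.0 FPKM (SD, n = 6 pigs), followed by PLIN4 with 105.7 ± 61.1 FPKM. PLIN1 (20.9 ± 19.1 FPKM) and CIDEC (18.0 ± 19.0 FPKM) stood below both of them, and PLIN5 (8.52 ± 3.60 FPKM) and PLIN3 (3.04 ± 0.530 FPKM) lower still. CIDEB, which is known from liver and its lipoproteins, was nearly silent at 0.0746 ± 0.0491 FPKM. PLIN2 exceeded PLIN4 in 4 of 6 pigs and CIDEC exceeded PLIN5 in 4 of 6 pigs, so these neighbours were not separated beyond the spread between pigs. Every other pair of neighbours in this order kept its order in 6 of 6 pigs, including PLIN1 above CIDEC.

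**Figure D1:**
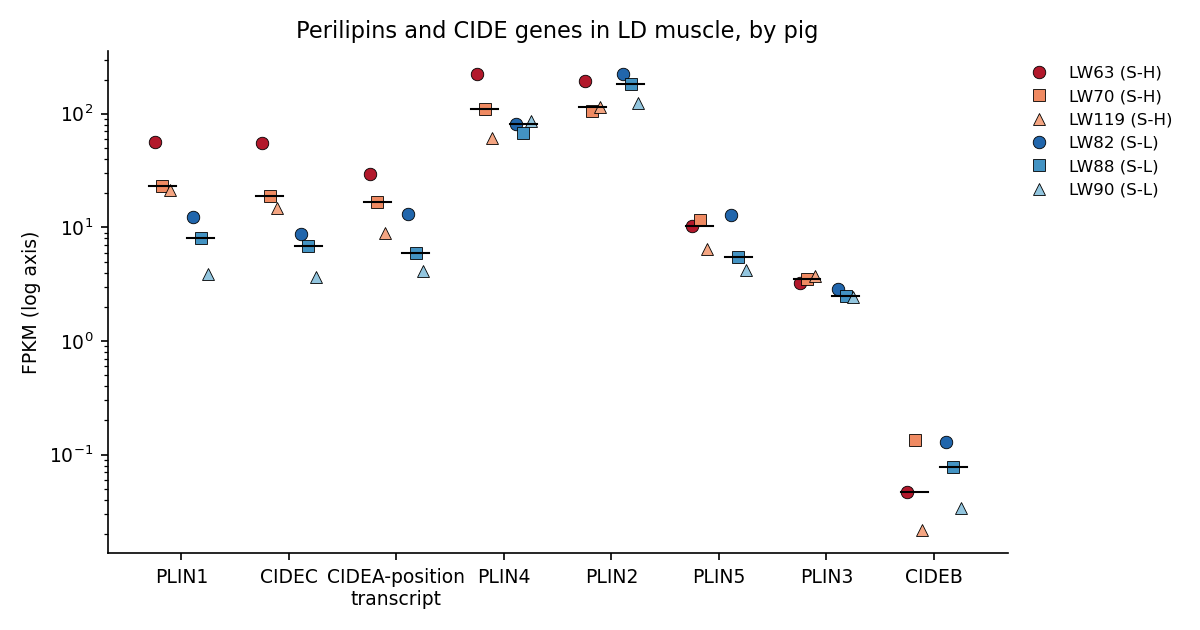
FPKM (log axis) of each perilipin and CIDE gene and of the transcript at the CIDEA position in the 6 pigs, with red symbols for S-H, blue symbols for S-L and a black bar at the median of each group. The 3 S-H pigs lie above the 3 S-L pigs for PLIN1, CIDEC and, in a narrow range, PLIN3, and the groups overlap for the others.

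PLIN1, at chr7:55235426-55250797 of the Sus scrofa 11.1 assembly, was measured at 56.8, 23.3 and 21.2 FPKM in LW63, LW70 and LW119 and at 12.4, 8.04 and 3.92 FPKM in LW82, LW88 and LW90. LW63 was far above the other S-H pigs, yet the lowest S-H pig still exceeded the highest S-L pig. The log2 fold change of FPKM + 0.1, S-H against S-L, was 2.04 (SE 0.47, 95% interval 0.99 to 3.08, limma p = 0.00145, adjusted p = 0.463, exact permutation test p = 0.10). This is a 4.11-fold difference with an interval from 1.99-fold to 8.46-fold. In bulk tissue, fewer cells of a type and less RNA per cell cannot be told apart, which holds for every difference given here.

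CIDEC, at chr13:66141838-66149703, was measured at 55.2, 18.7 and 14.7 FPKM in LW63, LW70 and LW119 and at 8.77, 6.81 and 3.63 FPKM in LW82, LW88 and LW90. The pigs fell in the same order as for PLIN1 and the groups did not overlap. The log2 fold change was 2.02 (SE 0.49, 95% interval 0.93 to 3.11, limma p = 0.00206, adjusted p = 0.515, exact permutation test p = 0.10). Without LW90, the S-L pig with the least CIDEC, it was 1.67 and, in limma, just missed the threshold described next.

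PLIN1 and CIDEC were the members that passed the study's own threshold, which asks for an unadjusted p below 0.01 together with a log2 fold change of 1 or more in size. Of the 6 members that reached a mean of 0.1 FPKM and were tested, 2 were higher in S-H and 0 were lower in the limma fit, while 1.36% of all 12744 tested protein-coding genes were called in either direction 1.17% were called higher and 0.188% lower. At an unadjusted p below 0.05 the count of members was also 2, beside 8.15% of all genes, and 5 of the 6 had a positive log2 fold change, beside 74.1% of all genes. None of the 12744 tested genes reached an adjusted p below 0.05 in limma, whereas 1039 had an unadjusted p below 0.05. The exact two-sided permutation test of 3 pigs against 3 cannot go below 0.10, the value given for PLIN1 and CIDEC.

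PLIN4, at chr2:74316771-74338941, was read at 226, 111 and 61.7 FPKM in LW63, LW70 and LW119 and at 81.6, 68.1 and 86.6 FPKM in LW82, LW88 and LW90. LW63 and LW70 were above every S-L pig and LW119 was below every S-L pig. The S-L pigs lay within 1.27-fold of each other and the S-H pigs within 3.65-fold. The log2 fold change was 0.56 (95% interval −0.35 to 1.47, limma, adjusted p = 0.7004), and it depended on single pigs, being 0.08 without LW63 and 1.01 without LW119.

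The CIDEA gene, whose protein is known from brown fat and from fat cells with many droplets, had no row under its own name. RefSeq places CIDEA at chr6:97253074-97268355 of the same assembly, inside a single gene entry of the table (chr6:97253074-97309745) that also spans RefSeq IMPA2, an inositol phosphatase gene, at chr6:97280008-97309729. One annotated transcript of that entry, at chr6:97253074-97267678, covers 95.6% of RefSeq CIDEA and lies outside IMPA2, and it is given here as the CIDEA-position transcript and not counted among the members. After conversion to FPKM it was at 29.4, 16.6 and 8.87 FPKM in LW63, LW70 and LW119 and at 13.0, 5.91 and 4.11 FPKM in LW82, LW88 and LW90. LW82 exceeded LW119, so the groups overlapped. Its log2 fold change in the limma fit across 40336 transcripts was 1.25 (SE 0.58, 95% interval −0.13 to 2.62, adjusted p = 0.848). Longer annotated transcripts of the same entry cover 99.5% of RefSeq CIDEA and run on into IMPA2. The longest was at 4.56 FPKM in LW63, at 11.8 FPKM in LW70 and at 0 in the other pigs. Reads of CIDEA may therefore be divided among transcripts differently from pig to pig.

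Among the members of other cells, PLIN2 (chr1:203683862-203709274), also called adipophilin, was at 195, 106 and 114 FPKM in LW63, LW70 and LW119 and at 223, 184.5 and 125 FPKM in LW82, LW88 and LW90. It was the one tested member with a negative log2 fold change, −0.37 (95% interval −1.09 to 0.35, limma, adjusted p = 0.736), and its groups overlapped. LW63 lay between the highest S-L pigs, LW82 and LW88, while LW70 and LW119 lay below all 3 S-L pigs.

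PLIN3 (chr2:73969862-73995311), which is soluble in the cytosol and moves onto new droplets, was at 3.21, 3.53 and 3.72 FPKM in LW63, LW70 and LW119 and at 2.85, 2.48 and 2.46 FPKM in LW82, LW88 and LW90. It varied least of all members, and the groups did not overlap, although its log2 fold change was only 0.41 (95% interval −0.14 to 0.96, limma, adjusted p = 0.658). In all, 3 of the 6 tested members had every S-H pig above every S-L pig, against 13.1% of all tested genes. The median log2 fold change of all genes was 0.21 in FPKM, 0.35 in TPM, 0.01 after median-ratio size factors and −0.01 after quantile normalization. PLIN3 followed this shift, with 0.20 after size factors and 0.17 after quantile normalization, and its groups overlapped in both. PLIN1 and CIDEC stayed non-overlapping under all of these scalings, with log2 fold changes of 1.82 and 1.81 after size factors, when 5.96% of all genes had every S-H pig above every S-L pig. PLIN2 came to −0.59 after size factors (limma, adjusted p = 0.765), so that no tested member changed sign under these scalings.

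PLIN5 (chr2:74300619-74315125) was at 10.4, 11.6 and 6.41 FPKM in LW63, LW70 and LW119 and at 12.9, 5.47 and 4.25 FPKM in LW82, LW88 and LW90. LW82 had the most PLIN5 of all pigs and the other S-L pigs the least. The log2 fold change was 0.45 (95% interval −0.47 to 1.36, limma, adjusted p = 0.751), and it ran from 0.12 without LW90 to 0.92 without LW82. CIDEB (chr7:74982306-74985775) was at 0.0473, 0.136 and 0.0216 FPKM in LW63, LW70 and LW119 and at 0.1302, 0.0786 and 0.0342 FPKM in LW82, LW88 and LW90, below the minimum for the test. With no minimum its log2 fold change was −0.13 (SE 0.30, limma, adjusted p = 0.911). Of the liver markers, ALB (log2 fold change −0.02) and APOA1 (0.02) reached the test and were not called, and TTR was at 0 in every pig.

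**Figure D2:**
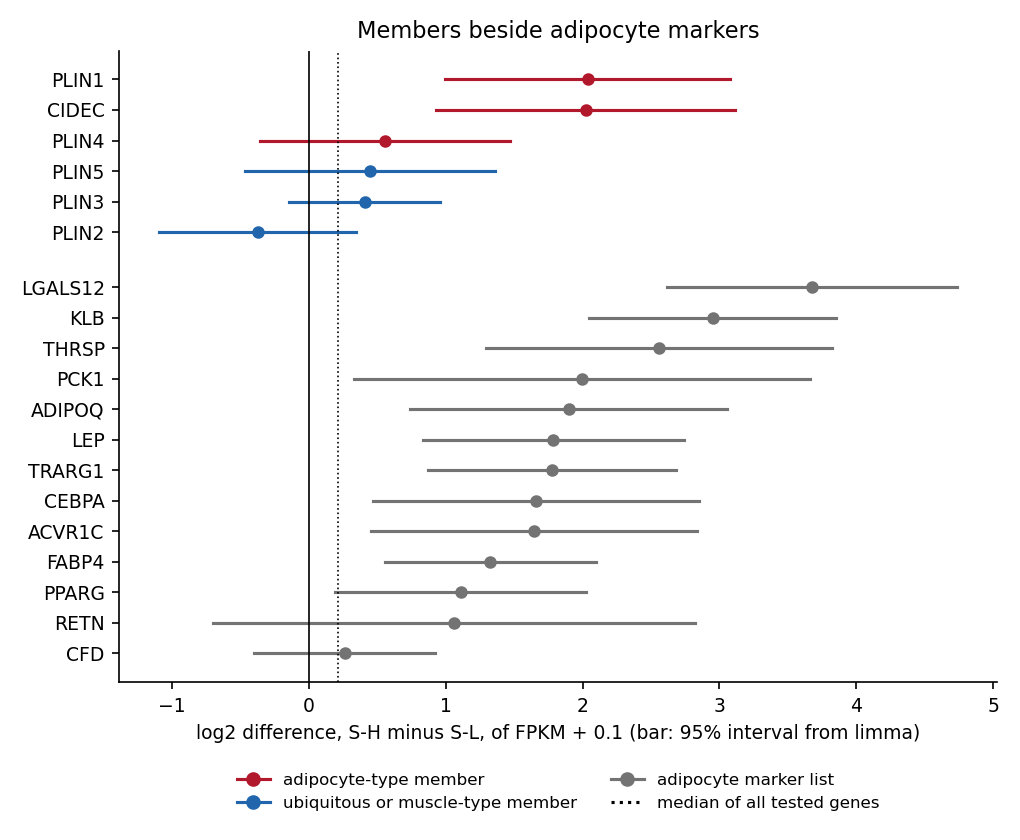
Log2 fold change, S-H minus S-L, of FPKM + 0.1 with its 95% interval from limma for the 6 tested members and the 13 tested adipocyte markers, with a solid line at 0 and a dotted line at the median of all tested genes (0.21). The intervals of PLIN1 (0.99 to 3.08) and CIDEC (0.93 to 3.11) lie above both lines, and those of PLIN4, PLIN5, PLIN3 and PLIN2 include 0.

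The makeup of the droplet coat mRNA differed between the groups without overlap for 3 members, while its total overlapped. The summed FPKM of the members was 546, 274 and 222 in LW63, LW70 and LW119 and 341, 276 and 226 in LW82, LW88 and LW90. PLIN1 took 9.49 ± 0.953% (SD, n = 3) of this sum in S-H and 2.76 ± 0.954% in S-L. CIDEC took 7.85 ± 1.95% in S-H and 2.22 ± 0.530% in S-L. PLIN2 was the largest part in S-L, with 62.5 ± 6.32%, and made up 41.9 ± 8.33% in S-H. For all 3 genes the groups did not overlap in this share, as for 3.4% of all tested genes set against the same sum, while PLIN4 took 36.5 ± 7.52% in S-H and 29.0 ± 8.14% in S-L with overlap.

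The adipocyte-type members (PLIN1, PLIN4 and CIDEC) were set against the ubiquitous or muscle-type members (PLIN2, PLIN3 and PLIN5) within each pig, by the difference of their mean log2(FPKM + 0.1). This score was 2.24, 1.14 and 0.93 in LW63, LW70 and LW119 and 0.03, 0.18 and −0.03 in LW82, LW88 and LW90. It was 1.44 ± 0.70 (SD, n = 3) in S-H and 0.06 ± 0.11 in S-L, a difference of 1.38. The muscle-type members alone differed by 0.16 with overlap and the adipocyte-type members alone by 1.54 without overlap. Leaving out PLIN4 raised the difference of the score to 1.87, and adding the CIDEA-position transcript gave 1.31.

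Taken gene by gene, each adipocyte-type to muscle-type ratio was compared between the groups, which made 12 ratios with the CIDEA-position transcript included. With the full PLIN5 sum, all 6 ratios of PLIN1 and CIDEC to PLIN2, PLIN3 and PLIN5 separated the groups, with S-H pigs on top. The same held for 2 ratios of the CIDEA-position transcript. That PLIN5 sum includes a transcript that lies on RefSeq LRG1, described below. Without it PLIN5 was at 8.21 FPKM in LW70 and at 2.75 FPKM in LW88. The ratios of PLIN1, CIDEC and the CIDEA-position transcript to PLIN5 were then higher in LW88 than in LW70, so the groups overlapped. The widest gap was that of PLIN1 to PLIN2, which was 0.291, 0.220 and 0.186 in LW63, LW70 and LW119 and 0.0557, 0.0436 and 0.0315 in LW82, LW88 and LW90. The difference of this log2 ratio was 2.41, and that of CIDEC to PLIN2 was 2.40. PLIN4 overlapped between the groups in all of its ratios. Over all tested genes, 24.2% had a ratio to PLIN2 that was higher in every S-H pig. The share was 1.65% for the ratio to PLIN3 and 0.604% for the ratio to the full PLIN5 sum. The ratio to PLIN2 thus separated the groups for many other genes too. With the full PLIN5 sum, the exact two-sided permutation test gave p = 0.10 for each of the 8 separated ratios, the smallest p possible. After Benjamini-Hochberg adjustment over the 12 it was 0.15.

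PLIN1 and CIDEC nevertheless rose and fell with PLIN2 from pig to pig within S-L, and in part within S-H. Within S-L the order LW82, LW88, LW90 was that of all 3 genes. Within S-H, LW63 had the most of all 3 mRNAs. LW70 exceeded LW119 in PLIN1 and CIDEC but lay below it in PLIN2. Over the 6 pigs, Pearson's r of log2(FPKM + 0.1) between PLIN1 and PLIN2 was 0.10, and it was 0.99 when each value was taken as the deviation from its group mean. By that second measure PLIN2 ranked 24 among the 9397 named genes with a mean of at least 1 FPKM, of which 3.8% had an r over 0.9 with PLIN1. After size factors r of the deviations was 0.98 and the rank 18. For CIDEC and PLIN2 r of the deviations was 0.96 in FPKM and 0.99 after size factors. In FPKM, PLIN2 ranked 86 for CIDEC, and 2.99% of the named genes had an r over 0.9 with CIDEC. These values describe 6 libraries and were not tested.

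**Figure D3:**
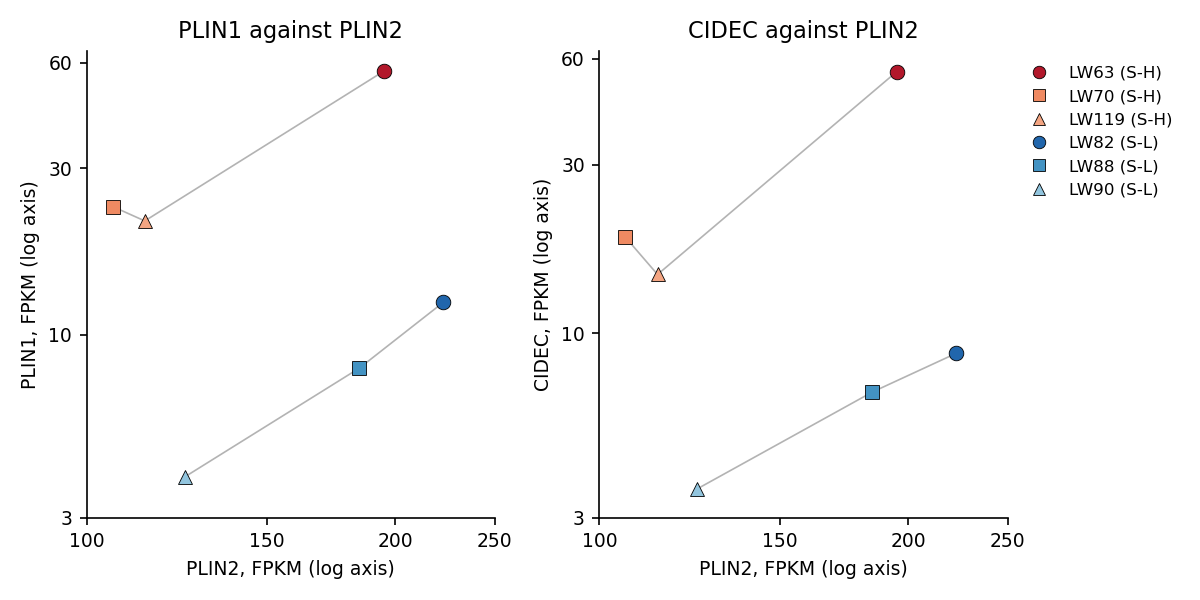
FPKM of PLIN1 (left) and CIDEC (right) against FPKM of PLIN2, both on log axes, for the 6 pigs, with grey lines joining the pigs of 1 group. The S-H pigs lie above the S-L pigs, between 21.2 and 56.8 FPKM of PLIN1 against 3.92 to 12.4 FPKM, and within S-L both genes increase with PLIN2.

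Most adipocyte markers were higher in S-H, as PLIN1 and CIDEC were. Of 13 tested genes of an adipocyte marker list, all had a positive log2 fold change, beside 74.1% of all tested genes. In the limma fit 7 were called higher in S-H, beside 1.17% of all tested genes. Their median log2 fold change was 1.78 against 0.21 for all tested genes. The list was chosen with earlier results of these data known, so its counts are a description and no independent support. The summed FPKM of the list ranged from 473 to 1212 in S-H and from 288 to 379 in S-L. The called genes were LGALS12, a galectin of lipid droplets in fat cells (log2 fold change 3.68), the FGF21 co-receptor KLB (2.95), THRSP (2.56), the hormones ADIPOQ (1.90) and LEP (1.79), TRARG1 (1.78) and the fatty acid carrier FABP4 (1.33). CEBPA, ACVR1C, PPARG and PCK1 had a p between 0.0112 and 0.0234 and were not called. CFD, the other very abundant gene of the list, was at 95.7 to 193 FPKM in S-H and 97.1 to 130 FPKM in S-L. CFD (log2 fold change 0.26) and RETN (1.06) overlapped between the groups, and RETN was above 0 only in LW119. ADRB3 was at 0 in 5 pigs and at 0.0203 FPKM in LW90. The part of fat cell number in the values of PLIN1 and CIDEC was not tested.

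Each adipocyte-type member was therefore read against ADIPOQ, adiponectin, in the same pig. CIDEC stood at 15.1, 15.9 and 15.3% of ADIPOQ in LW63, LW70 and LW119 and at 13.1, 13.8 and 15.1% in LW82, LW88 and LW90, although ADIPOQ itself spanned 15.3-fold. The ratio thus varied 1.21-fold over the 6 pigs, the narrowest range among 9397 named genes, for which the median range was 11.4-fold. PLIN1 followed in the next rank with a 1.42-fold range, from 15.5% in LW63 to 22.0% in LW119. Neither ratio separated the groups (exact two-sided permutation test, p = 0.50 for PLIN1 and p = 0.30 for CIDEC, n = 3 pigs a group). Against the summed FPKM of the adipocyte list, in which FABP4 has the highest mean, the ratios varied more. CFD, which was not called (log2 fold change 0.26), made up an uneven part of that sum. It was 130 of 288 FPKM in LW90 and 193 of 1212 FPKM in LW63. Ratios to the list without CFD were not tested. CIDEC was at 4.55, 2.62 and 3.11% of that sum in LW63, LW70 and LW119 and at 2.31, 2.11 and 1.26% in LW82, LW88 and LW90, so the groups did not overlap (difference 0.85 on the log2 scale, exact two-sided permutation test, p = 0.10, adjusted p = 0.267), as for 0.118% of all tested genes. PLIN1 was at 3.26 to 4.69% in S-H and 1.36 to 3.27% in S-L, with overlap between LW70 and LW82 and a difference of 0.86 (exact two-sided permutation test, p = 0.20). The range over the 6 pigs was 3.53-fold for CIDEC and 3.36-fold for PLIN1 on this measure, so the narrow range holds for ADIPOQ and not for the list as a whole.

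PLIN4 did not share this pattern. It was at 61.7, 94.2 and 64.1% of ADIPOQ in LW63, LW70 and LW119 and at 122, 138 and 362% in LW82, LW88 and LW90, with every S-L pig above every S-H pig. The same held for 64.3% of all tested genes. Against the list sum PLIN4 was at 13.1 to 18.6% in S-H and 21.1 to 30.1% in S-L, again without overlap, as for 41.7% of all tested genes. The exact two-sided permutation test gave p = 0.10 for both, and an adjusted p of 0.267 over the 8 ratios to ADIPOQ and to the list. The CIDEA-position transcript lay between, at 8.04 to 14.1% of ADIPOQ in S-H and 11.97 to 19.4% in S-L, with overlap.

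**Figure D4:**
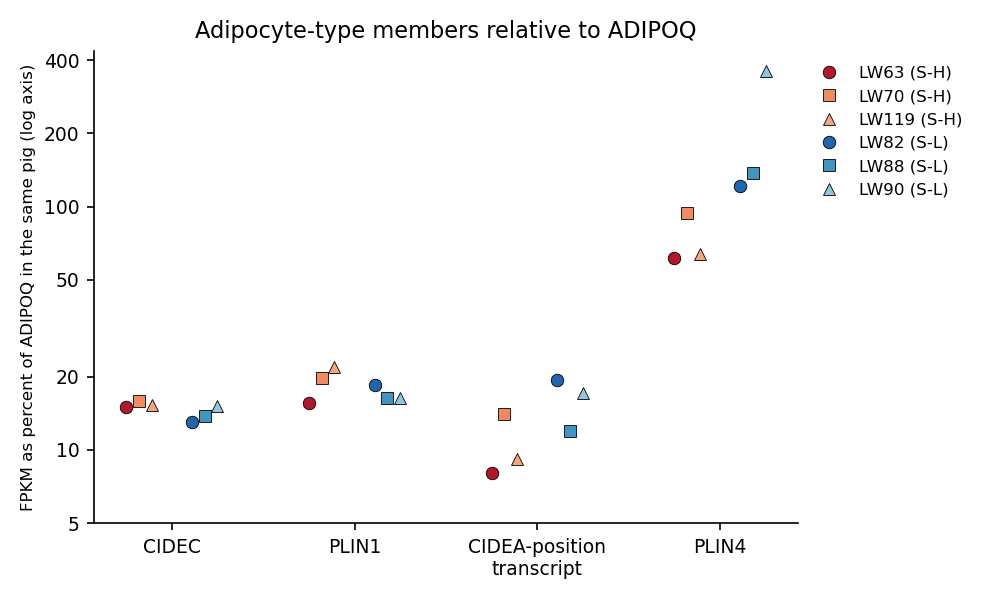
FPKM of the adipocyte-type members and of the CIDEA-position transcript as a percent of the FPKM of ADIPOQ in the same pig (log axis), with red symbols for S-H and blue symbols for S-L. CIDEC stays between 13.1% and 15.9% and PLIN1 between 15.5% and 22.0% in all pigs, whereas PLIN4 runs from 61.7% to 362% with S-L on top.

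The genes most like each main member over the 6 pigs were named by Pearson's r of log2(FPKM + 0.1) among the 9397 named genes. For PLIN1 they were TRARG1, a regulator of GLUT4 trafficking in fat cells (r = 0.996), GTPBP3 of mitochondrial tRNA modification (0.994) and DGAT1, which forms triglyceride (0.992), with ADIPOQ in rank 6 and CIDEC in rank 7. For CIDEC they were ADIPOQ (0.997), the retinol dehydrogenase gene SDR16C5 (0.993) and CCNI (0.990), with PLIN1 in rank 5. PLIN2 had other neighbours, CC2D1A (0.994), MTX3 (0.975) and ECPAS (0.962), and PLIN1 and CIDEC stood at ranks 4893 and 4748 in its list. With 6 libraries that share their scaling, such values are a description only.

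Most members were carried by 1 transcript. PLIN1-202 held 89.9 to 99.3% of the PLIN1 sum, PLIN2-201 held 91.4 to 99.1% of PLIN2, PLIN3-201 at least 97.8% of PLIN3, and CIDEC-201 and CIDEB-201 the whole of their genes. PLIN1-203, a minor form, was at 0.449, 0.164 and 0.751 FPKM in LW63, LW70 and LW119 and at 0.786, 0.804 and 0.356 FPKM in LW82, LW88 and LW90, so its level did not follow that of PLIN1-202 and its share was 0.706 to 3.55% in S-H and 6.35 to 9.99% in S-L. Of the 23 transcripts of the members 5 were at 0 in every pig, 13 were tested, and PLIN1-202 was the 1 called (log2 fold change 2.14, limma, adjusted p = 0.743), beside 1.25% of all 40336 tested transcripts. CIDEC-201 had a log2 fold change of 2.02 (limma, adjusted p = 0.790) and was not called in that fit.

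PLIN4 was divided between PLIN4-201 with 55.3 to 63.6% and PLIN4-202 with 33.8 to 43.1%, in a proportion that changed little between pigs. PLIN5 was divided unevenly. PLIN5-205 held 70.6, 64.5 and 17.6% in LW63, LW70 and LW119 and 69.0, 38.8 and 78.4% in LW82, LW88 and LW90. PLIN5-203 held 53.0% in LW119, 49.9% in LW88 and 10.9 to 29.4% in the other pigs, and this transcript (chr2:74300619-74302720) lies on RefSeq LRG1 (chr2:74300598-74303117), a gene for a secreted glycoprotein, and outside RefSeq PLIN5 (chr2:74304613-74314314). Without it PLIN5 was at 7.99, 8.21 and 3.01 FPKM in LW63, LW70 and LW119 and at 10.8, 2.75 and 3.79 FPKM in LW82, LW88 and LW90, and the log2 fold change was 0.26 (limma, adjusted p = 0.898). In LW119 PLIN5 then lay below PLIN3, which was at 3.72 FPKM. The rest of the PLIN5 entry holds further transcripts that run across both genes, so reads of LRG1 and PLIN5 may not be fully parted.

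**Figure D5:**
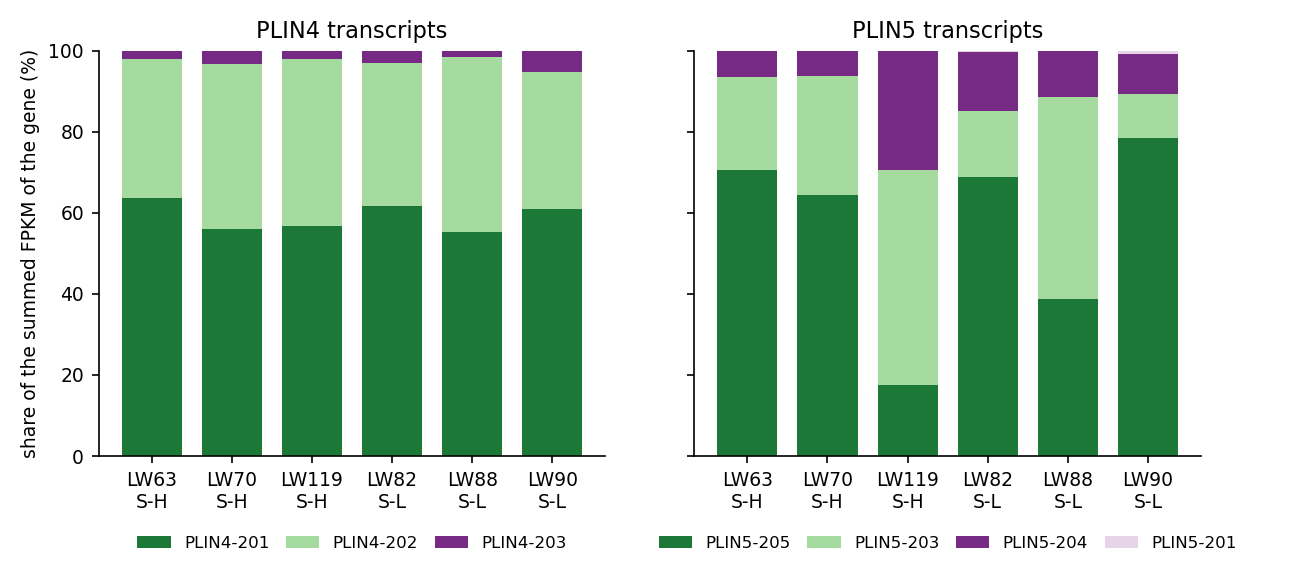
Stacked bars of the share (%) of each transcript with a value above 0 in the summed FPKM of PLIN4 (left) and PLIN5 (right) in each pig. PLIN4-201 holds 55.3 to 63.6% in every pig, whereas PLIN5-205 ranges from 17.6% in LW119 to 78.4% in LW90.

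In the genome, PLIN3, PLIN5 and PLIN4 lie on chromosome 2, with 1646 bp between the entries of PLIN5 and PLIN4 and 305308 bp between PLIN3 and PLIN5. Although PLIN4 and PLIN5 are next to each other, their ratio differed between pigs. With the full PLIN5 sum, LW90 had the second highest ratio of PLIN4 to PLIN5 (20.4) and LW82 the lowest (6.31). Without the transcript on LRG1, LW82 stayed lowest, but the ratio of LW88 exceeded that of LW90. HDGFL2 overlaps PLIN4 and an unnamed gene lies within the span of PLIN2, so reads of these genes could be divided wrongly. Of the tested genes within 100 kb of a member, 1 of 5 near PLIN1 was called, namely PEX11A, 4878 bp away and known for the division of peroxisomes. It was at 6.13, 6.49 and 4.27 FPKM in LW63, LW70 and LW119 and at 3.43, 3.14 and 1.75 FPKM in LW82, LW88 and LW90 (log2 fold change 1.03, SE 0.32, limma, adjusted p = 0.580). None of the tested genes near CIDEB (12), CIDEC (12), PLIN2 (3), PLIN3 (4), PLIN4 (7) or PLIN5 (8) was called in limma, and those with an unadjusted p below 0.05 were CAMK1 and RPUSD3, both near CIDEC.

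Other genes of the lipid droplet covered the formation of the droplet, its surface enzymes and the lipase partners of perilipins. Of 54 tested genes, 2 were called higher and 0 lower in the limma fit, 6 had an unadjusted p below 0.05, all higher in S-H where 7.08% of all genes were, and the median log2 fold change was 0.29, beside 0.21 for all tested genes. DGAT2, which completes triglyceride synthesis, was at 9.07, 2.19 and 7.36 FPKM in LW63, LW70 and LW119 and at 1.31, 1.66 and 0.490 FPKM in LW82, LW88 and LW90 (log2 fold change 2.25, adjusted p = 0.536). TRARG1, also in the adipocyte list, was the other called gene. The count was 1 without LW63 or without LW90 and 5 without LW119. PNPLA3 (log2 fold change 1.47), the protein kinase A subunit PRKAR2B (1.33), the hormone-sensitive lipase LIPE (0.78) and the caveola protein CAVIN1 (0.54) were not called.

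The lipase that perilipins restrain, PNPLA2, and its regulators had small differences and overlapping groups. PNPLA2 was at 22.3 to 35.4 FPKM in S-H and 21.7 to 28.3 FPKM in S-L (log2 fold change 0.28), its activator ABHD5, which PLIN1 binds, at 11.7 to 42.0 and 9.87 to 36.5 FPKM (0.32), and its inhibitor G0S2 at 10.7 to 18.5 and 5.95 to 14.1 FPKM (0.53). ABHD5 was highest in LW119 of S-H and in LW88 of S-L. BSCL2, the seipin of droplet formation, had a log2 fold change of 0.16. TMEM159, an older symbol of the seipin partner LDAF1, was not tested because RefSeq gives it as a noncoding gene, and its values were 36.2, 53.4 and 39.2 FPKM in LW63, LW70 and LW119 and 14.0, 31.3 and 25.2 FPKM in LW82, LW88 and LW90. Of the most abundant genes of the list, HSPA8 (log2 fold change 0.46), ACSL1 (0.24), CAV1 (0.31), ARF1 (0.72), LAMP2 (−0.03), VCP (−0.003) and FITM1 (0.09) had a p above 0.05.

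Markers of other cells were read beside the members, and 1.36% of all tested genes were called. Of 9 slow fibre genes none was called in limma and 1 had a p below 0.05 (TPM3, log2 fold change 0.74), with MYL2 at 0.38 and TNNC1 at 0.51. Of 7 fast fibre genes PVALB was called lower (−2.92) and ACTN3 (−0.82) had a p below 0.05, with MYLPF at −0.48 and TNNC2 at −0.53. All 9 slow fibre genes had a positive log2 fold change (median 0.51), beside 74.1% of all tested genes (median 0.21). Every S-H pig was on top for 4 of the slow fibre genes, beside 13.1% of all tested genes. All 7 fast fibre genes had a negative log2 fold change (median −0.55). The fast fibre list held 10 genes, and its myosin genes MYH1, MYH2 and MYH4 had no row under their names. The summed FPKM of both fibre lists overlapped between the groups, from 9657 to 11566 in S-H and 6466 to 9980 in S-L for slow fibres and from 11780 to 17844 and 13785 to 30115 for fast fibres. Of 8 endothelial genes CLDN5 was called higher (1.87), PECAM1 had 0.48, and the sum was 128 to 146 FPKM in S-H and 79.6 to 119 FPKM in S-L. Only these genes had every S-H pig on top. TIE1 (0.43), TEK (0.28), EMCN (0.12), KDR (0.06), CDH5 (0.03) and VWF (−0.26) overlapped between the groups.

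Of 9 macrophage genes none was called and only MARCO had a p below 0.05 (1.57), with C1QC at 0.25 and C1QA at 0.21, and of 8 fibro-adipogenic genes none was called or had a p below 0.05, with DCN at −0.06 and COL3A1 at 0.71. For brown or beige fat, in which CIDEA is known, PPARGC1A was called lower among 6 tested genes (−1.54), and COX7A1 had 0.11. In whole muscle the values do not show whether fat cells or fibres gave PPARGC1A and COX7A1. ELOVL3 and LHX8 were at 0 in every pig, and UCP1 had no row under its name. EBF2 (0.45), ZIC1 (0.42), PRDM16 (0.04) and DIO2 (−0.34) were not called. Of 12 targets of the fatty acid receptors (PPAR) in muscle, among which PLIN2 is often counted, none was called or had a p below 0.05, with FABP3 at 0.16 and PDK4 at 0.13. The part of these cells in the values of the members was not tested.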

How the data were processed

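RNA from LD muscle of 3 S-H and 3 S-L pigs was sequenced, with each pig as 1 replicate. The p values therefore rest on the spread between pigs, which includes that of their libraries. The authors prepared stranded libraries depleted of ribosomal RNA, aligned filtered reads to Sus scrofa 11.1 with Hisat2 and quantified transcripts with StringTie. The authors deposited 1 FPKM value for each transcript and pig. Annotated transcripts without a symbol appear from the values to be TPM and were converted with 1 factor per pig (0.639 to 0.847). The sources used here state no normalization between libraries, and the main setting has none. No read counts were used, so the depth of a value is unknown. Intervals cover the spread between pigs with 1 library each, in which animal differences and technical noise cannot be told apart.

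Gene values were sums over rows sharing a gene ID, with names from the table and gene types from RefSeq on that assembly (14189 genes matched by symbol, 4391 by at least 50% reciprocal overlap). Protein-coding genes with a mean of at least 0.1 FPKM were tested in R 4.3.3 by limma 3.58.1 with its variance trend, on log2(FPKM + 0.1), which understates changes of low genes, and Benjamini-Hochberg adjustment ran over all 12744. A gene was called at an unadjusted p below 0.01 with a log2 fold change of 1 or more in size, the study's thresholds. Single values and ratios went into exact permutation tests, two-sided, in Python 3.11.15 with scipy 1.17.1. On simulated data the fit recovered 186 of 200 genes changed by 2 on the log2 scale (93.0%), and 85 unchanged genes passed (0.678%). The error of the fit in the pig libraries, where all tested genes had a median log2 fold change of 0.21, was not tested.

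Members and lists were chosen with earlier results of these data known. The genes named were all members, genes of the lists with an unadjusted p below 0.05 (up to 5 of each marker list) or the highest means (8 for the droplet list and 2 for each marker list), the 3 genes most like PLIN1, PLIN2 and CIDEC, and genes within 100 kb. ADIPOQ and the adipocyte genes past 5, PNPLA2, ABHD5, G0S2, BSCL2, TMEM159, LRG1, IMPA2 and HDGFL2 were added after their values were seen. So were EBF2, ZIC1, PRDM16, DIO2 and the endothelial genes other than CLDN5 and PECAM1. The other settings tried were other pseudocounts, minimum levels, scalings, variance models, gene sets and thresholds, the leading transcript alone and each pig left out. Promoter sequences were not analysed here. A gene of the muscle PPAR target list is not reported here.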

Additional observations from a re-analysis of the deposited data

How the results depend on the processing

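Log2 fold changes of the 6 tested members kept their sign under every alternative tried, but that of PLIN5 was 0.004 with the leading transcript and that of PLIN4 was 0.08 without LW63. PLIN1 ranged from 1.82 to 2.17 over 16 settings and from 1.59 to 2.41 with each pig left out, where it stayed called, and CIDEC from 1.81 to 2.16 and from 1.45 to 2.40. At an adjusted p below 0.05 neither was called (2.04 for PLIN1 and 2.02 for CIDEC), and the counts of called genes fell to 0 for the members, the lipid droplet list, the adipocyte list and all marker lists. With the leading transcript in place of the sum CIDEC (2.02) was no longer called and 1 member and 1 lipid droplet gene remained in the counts. CIDEC was also not called without LW90 (1.67), and leaving out single pigs gave 1 (without LW90) to 2 called members, 1 (without LW63 or LW90) to 5 (without LW119) called lipid droplet genes and 6 (without LW90) to 12 called marker genes, beside 2, 2 and 10 with all pigs. Lipid droplet calls numbered 4 in TPM and 1 among genes with a symbol only. At an unadjusted p below 0.05 with no minimum fold there were 6 lipid droplet, 11 adipocyte and 17 marker genes. Over all genes, 173 calls became 77 with a pseudocount of 1, 253 in TPM, and between 86 (without LW90) and 261 (without LW82) with single pigs left out. The split of higher to lower calls was 149 to 24 in FPKM, 239 to 14 in TPM, 84 to 55 after size factors and 69 to 62 after quantile normalization. Alternatives chosen after seeing the data were sums with assembled transcripts that overlap a member, sums without rows off the RefSeq gene, and the contrast of member types with the CIDEA-position transcript or without PLIN4. Both sums left the counts of calls as reported. The table holds no strand, so assembled transcripts on the same strand could not be separated. No paired analysis was possible because the labels pair no pigs and the groups hold different animals.

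The depth behind CIDEB, the lowest member, is unknown. With 3 pigs a group the intervals of PLIN2, PLIN4 and PLIN5 reach beyond 1 on the log2 scale, so that differences of that size were within the error.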
